A study of Mus musculus with 9 samples.

Results

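The genes described here encode the proteasome, its regulators and its assembly factors. They were taken as the mouse gene symbols that start with Psma, Psmb, Psmc, Psmd, Psme, Psmf or Psmg followed by a digit. Of 55367 gene symbols in the count tables, 55 matched. After 5 pseudogenes and the interferon-inducible catalytic subunits Psmb8 and Psmb9 were left out, 48 candidates remained, and 46 of them had a mean level of at least 1 CPM over the 9 libraries (CPM: the counts of a gene scaled to a common library total). The 2 candidates below that level were the thymus-specific subunit Psmb11, with 0 counts, and the testis-enriched subunit Psma8, at 0.686 CPM. The 2 nearest members above it were Psme2b at 2.22 CPM and Psmc3ip at 3.76 CPM. The 46 members fell into 15 genes of the core particle, 17 genes of the regulatory particle, 12 genes for activators, an inhibitor and assembly factors, and 2 genes that carry a matching symbol without encoding a known part of the complex. Their gene models lie on 16 chromosomes.

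The proteasome degrades proteins that have been tagged with ubiquitin. Its barrel-shaped core particle stacks rings of alpha subunits, which gate the entrance, around rings of beta subunits, some of which cut peptide bonds. The regulatory particle caps the core: its lid removes ubiquitin, and the ATPases of its base unfold the protein and thread it into the core. Alternative activators open the core without ATP, and dedicated chaperones help both particles assemble. In monocytes and other antigen-presenting cells the complex also supplies peptides for MHC class I molecules, and interferon exchanges some catalytic subunits for inducible ones.

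Monocytes of adult mice were kept for 4 h with buffer alone (control), with platelets of adult mice or with P7 platelets. The label P7 gives the postnatal day of the platelet donors, and the sample names shorten this group to Neoplts. The monocytes were then washed before poly(A) RNA was sequenced. Each of the 3 groups had 3 libraries. The labels give no strain, sex or method of cell isolation, and they do not say whether the libraries of a group came from separate cultures or animals, so p-values measure the spread between these samples, which may be technical. No gene was targeted.

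The libraries held 29687341 to 37065564 counts in genes. Monocyte markers made up 2.43 to 2.68% of counts in control, 2.61 to 3.05% with adult platelets and 2.39 to 2.91% with P7 platelets, and none of the 8 was at 0 in any library. Most of this sum was Lyz2, with group means of 17181, 19993 and 21119 normalised CPM. Single markers differed between control and P7 platelets in either direction. The means went from 2038 to 3389 for Csf1r, 834 to 1653 for Cd14 and 524 to 1015 for Cx3cr1. That of Ccr2 went from 2379 to 1747. Ly6c2 and Fcgr1 also had higher means with P7 platelets, and Itgam a lower one. The 13 platelet markers took 0.00246 to 0.00278% of counts in control, 0.0753 to 0.139% with adult and 0.125 to 0.146% with P7 platelets. The 5 erythroid markers, mostly globins, took 8.81e-04 to 0.00117%, 0.0481 to 0.18% and 4.36 to 5.5%. Mitochondrially encoded transcripts took 1.17 to 1.62%, 2.05 to 2.28% and 2.33 to 2.42% of counts in the same order. The 3 natural killer markers summed to 20.2 to 29 CPM in control, 16.4 to 21.1 with adult and 11.6 to 16.1 with P7 platelets, so that control and P7 platelets did not overlap; the sum was nearly all counts of Klrd1: Ncr1 had 0 to 1 and Klrb1c 0 to 2 counts per library. The 5 neutrophil markers summed to 143 to 157, 137 to 293 and 109 to 122 CPM, again without overlap of control and P7 platelets. The 4 B cell markers (5.24 to 6.96, 6.17 to 8.39 and 5.65 to 8.59 CPM) and the 4 T cell markers (0.412 to 0.481, 0.161 to 0.873 and 0.311 to 0.505 CPM) overlapped between all groups. The part of these transcripts in the differences below was not tested, and in bulk RNA fewer cells of a type and less RNA per cell cannot be told apart. Igkc, an immunoglobulin light chain gene, split the libraries in another way: control 1, adult platelets 1, adult platelets 3 and P7 platelets 1 held 410.0 to 772 CPM and the other libraries 123 to 172 CPM.

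Relative to the bulk of genes, most proteasome genes were higher in monocytes kept with platelets, and higher again with P7 than with adult platelets. With adult platelets 30 of the 46 members rose over control and 0 fell, by edgeR's quasi-likelihood test at an adjusted p below 0.05; among all 13707 genes tested, 14.3% rose and 12.0% fell. With P7 platelets 40 members rose over control and 1 fell, against 29.9% and 29.3% of all genes. Between the platelet groups 34 members were higher with P7 platelets and 0 lower, against 19.7% and 19.8% of all genes. The members are abundant transcripts, so the shares were also taken among the 8272 genes with a mean of at least 10 CPM, where 17.9%, 36.4% and 24.8% of genes were higher in these comparisons.

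The individual differences were small. The median member was 1.19-fold higher with adult platelets than in control (log2 fold change 0.25), 1.37-fold higher with P7 platelets than in control (0.46) and 1.21-fold higher with P7 than with adult platelets (0.27), while the median over all genes tested was 0.00, -0.01 and -0.02. All 3 adult-platelet libraries lay above all 3 control libraries for 35 members, compared with 21.8% of all genes. The same was true of P7 platelets over control for 42 members (34.5% of all genes) and of P7 over adult platelets for 36 members (24.2%). These comparisons share libraries, so their values stand side by side and are not independent of each other.

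**Figure D1:**
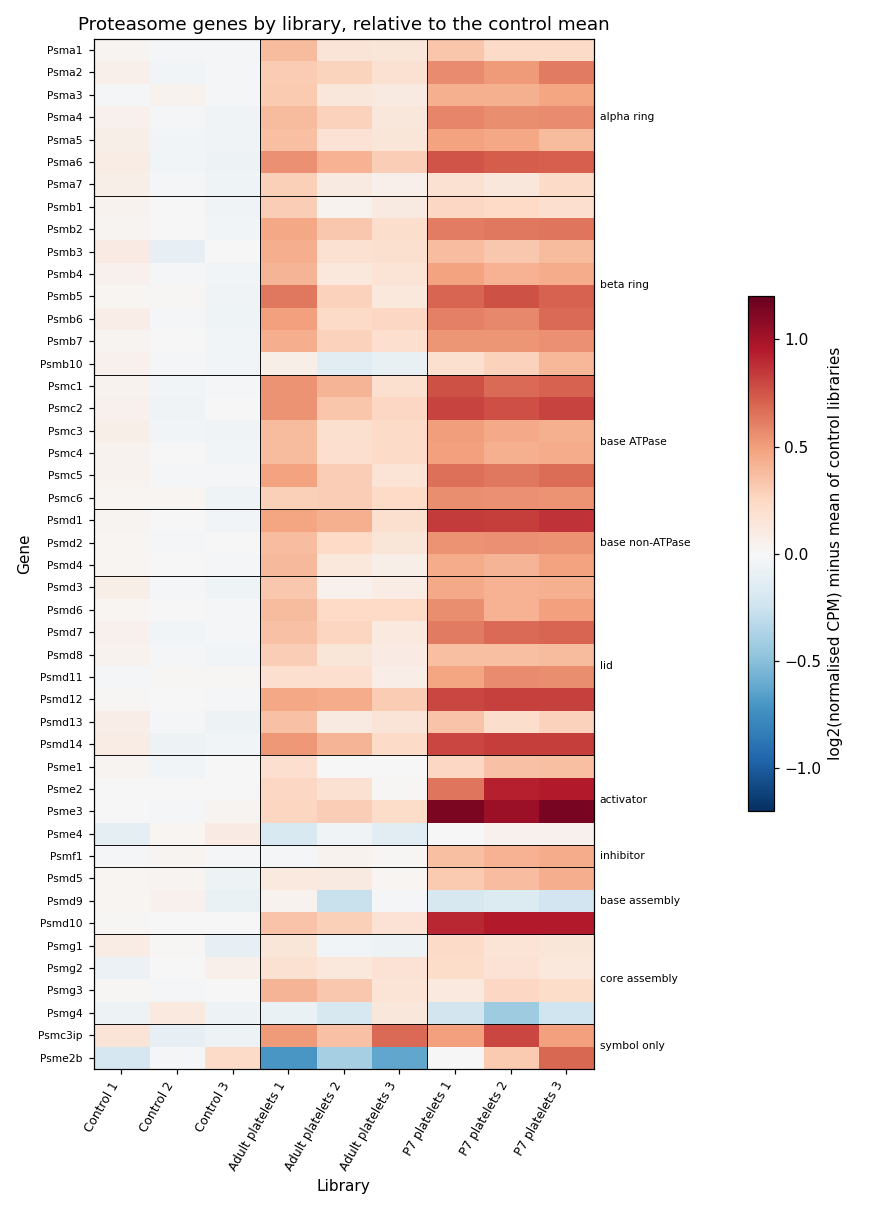
Colour shows log2(normalised CPM) in each of the 9 libraries (columns) minus the mean of the control libraries, for each of the 46 members (rows), ordered by role; red is above and blue below control. Core and regulatory genes are red in nearly every adult-platelet library and deeper red in the P7-platelet libraries, whereas Psme4, Psmd9 and Psmg4 are pale or blue.

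By class the calls fell as follows. Of the 15 core genes, 12 rose with adult platelets and 15 with P7 platelets over control, and 11 were higher with P7 than with adult platelets. Of the 17 regulatory genes, 14 and 17 rose over control and 16 were higher with P7 than with adult platelets. Of the 12 activator, inhibitor and assembly genes, 3 rose with adult platelets, 7 rose and 1 fell with P7 platelets, and 6 were higher with P7 than with adult platelets. The median log2 fold changes in the same order were 0.25, 0.45 and 0.25 for the core, 0.27, 0.54 and 0.29 for the regulatory particle and 0.08, 0.26 and 0.21 for the third class.

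**Figure D2:**
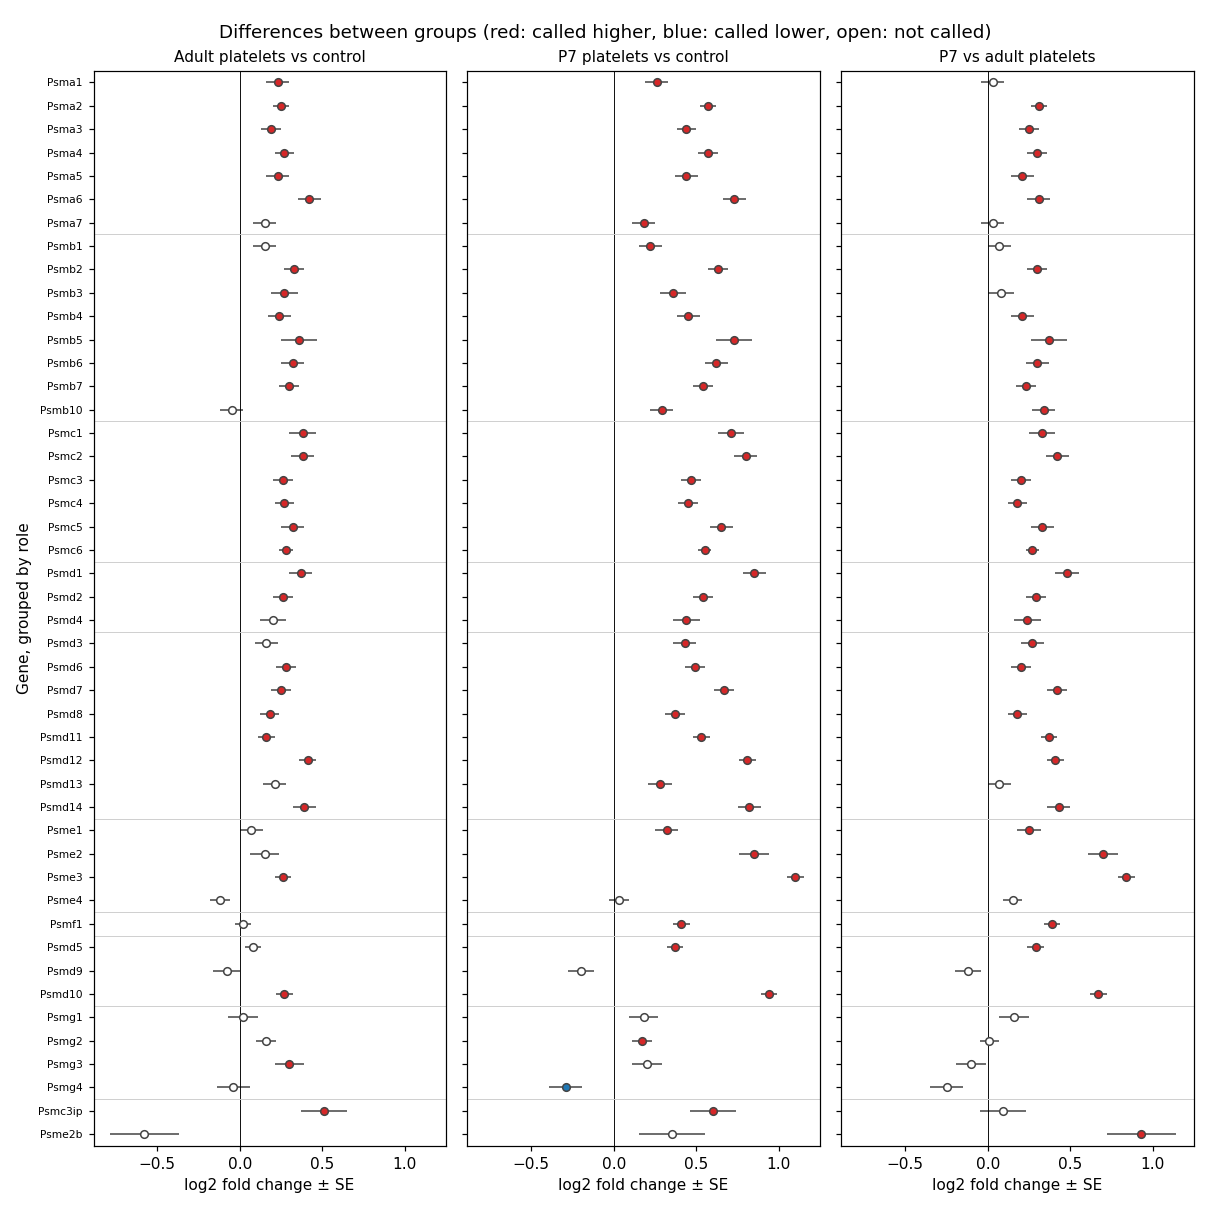
Points give the log2 fold change of each member (rows, grouped by role) with its standard error as a bar, in one panel per comparison; filled red points were called higher, filled blue lower and open points were not called at an adjusted p below 0.05. Psme3, at 1.10 with P7 platelets against control, lies farthest to the right, and the 6 base ATPases are filled red in all panels.

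How libraries are put on a common scale bears on these counts. The values above use TMM factors, which centre the bulk of genes. Scaled to the library total with no factor, a choice made after seeing the data, the median of all genes moved to -0.07, -0.29 and -0.24 in the comparisons of adult with control, P7 with control and P7 with adult. The members called higher and lower then numbered 18 and 2 with adult platelets, 25 and 3 with P7 platelets, and 11 and 5 between the platelet groups. Of all genes, 9.42% and 16.6%, 16.0% and 49.9%, and 10.4% and 43.5% were then called higher and lower. By class, 6 core genes rose with adult and 8 with P7 platelets, and between the platelet groups 0 were higher and 1 was lower. Regulatory genes called higher numbered 10, 13 and 6 in the 3 comparisons. With platelet, erythroid and mitochondrial transcripts also taken out of the totals, members called higher and lower numbered 20 and 2, 32 and 3, and 15 and 3, against 10.1% and 15.6%, 19.4% and 42.8%, and 12.8% and 33.0% of all genes. Core and regulatory genes higher with P7 than with adult platelets then numbered 2 and 7. The distance between the median member and the median gene was 0.25, 0.47 and 0.29 on the log2 scale under each of the 5 scalings. A scaling factor moves all genes of a library alike, so this distance was bound to stay and is no check of the result. Where TMM factors are used, the statements above and below are about proteasome genes relative to the bulk of genes.

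**Figure D3:**
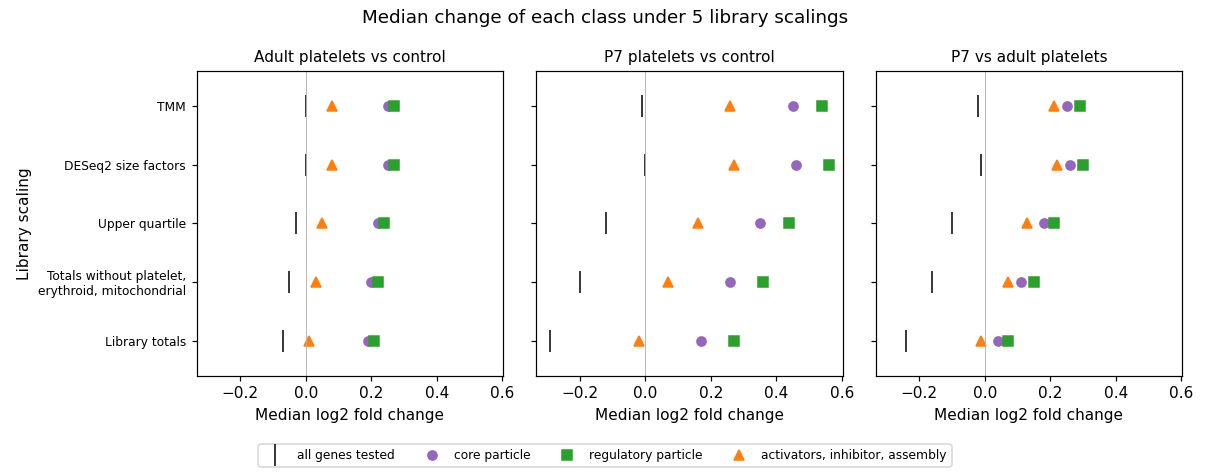
Each panel shows, for 5 ways of scaling libraries (rows), the median log2 fold change of all genes tested (black tick) and of the core, regulatory and remaining class (coloured symbols). All symbols shift left together from TMM to library totals, where the median gene with P7 platelets against control is at -0.29. The gap between the tick and each class stays the same by construction, since scaling moves all genes alike.

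The calls with adult platelets changed when single libraries were left out. Without control 2 the members that rose numbered 14 (7.99% of all genes rose), and without control 3 they numbered 15 (8.58%). Core genes that rose numbered 4 without control 2 and 4 without control 3, in place of 12, and 7 without adult platelets 1 or without P7 platelets 2. For the fit without P7 platelets 2 the share of all genes was not taken. Regulatory genes numbered 8 without control 2 and 9 without control 3, in place of 14. The first adult-platelet library was the highest of its group for 39 of the 46 members, and without it 21 members rose (11.8% of all genes). The first control library was the highest control for 36 members. Both hold high Igkc. Adult platelets 3, also high in Igkc, was the highest of its group for 2 members. In the P7-platelet group the library with high Igkc was the highest for 17 members and P7 platelets 3, with low Igkc, for 19. The reason for these orders was not tested. Splits by Igkc, chosen after seeing the data, leave groups of 1 library, which were assumed to vary like the others. The 5 libraries with low Igkc include 1 with adult platelets. There 32 members were called higher with adult platelets, 40 with P7 platelets and 37 between the platelet groups, against 2848, 4800 and 3112 of the 14223 genes tested there. In the 4 libraries with high Igkc, which include 1 control and 1 with P7 platelets, 0, 5 and 1 members were called higher, against 1.95%, 7.69% and 4.42% of all genes.

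The alpha ring forms the outer gate of the core particle. With adult platelets 6 of its 7 genes rose, with P7 platelets 7 of 7, and 5 were higher with P7 than with adult platelets. Psma6 held 104, 95.7 and 94 normalised CPM in the control libraries, 143, 130.2 and 120.1 with adult platelets and 165, 162 and 161 with P7 platelets, so that none of the groups overlapped. It rose by a log2 fold change of 0.42 ± 0.07 (SE, adjusted p = 0.00246) with adult platelets and 0.73 ± 0.07 (adjusted p = 2.28e-05) with P7 platelets, and differed by 0.31 ± 0.07 (adjusted p = 0.00663) between them. Psma2 followed the same order, with 111, 104 and 105 normalised CPM in control, 132, 128 and 121 with adult and 158, 152 and 164 with P7 platelets. Its log2 fold changes were 0.25, 0.57 and 0.31 in the comparisons of adult with control, P7 with control and P7 with adult, all called.

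Psma1 and Psma7 were the alpha genes that did not pass the test between platelet groups. Psma1 rose with adult platelets (0.23 ± 0.07, adjusted p = 0.034), a call lost without control 1, 2 or 3, adult platelets 1, or P7 platelets 2 or 3 (adjusted p up to 0.108). Psma7 rose over control with P7 platelets (0.18 ± 0.07, adjusted p = 0.0404), a call lost without control 2 or 3 or any 1 of the P7-platelet libraries (adjusted p up to 0.132). Scaled to library totals, the difference of Psma7 with P7 platelets was -0.09 over control and -0.18 over adult platelets, and that of Psma1 over control was -0.01. Psma7 held 211, 198 and 194 normalised CPM in control, 245, 217 and 209 with adult platelets and 228, 220.4 and 235 with P7 platelets, and the platelet groups overlapped (log2 fold change 0.03 ± 0.07). Per kilobase of transcript Psma7 had the highest level of the ring, 219.8 CPM per kilobase in control, and Psma3 the lowest, 22.1, a 9.96-fold range. That range was 8.33-fold with P7 platelets. It depends on the transcript lengths used: Psma3 was given 2846 bases, and in normalised CPM Psma5 was lower than Psma3 in control (38.7 against 62.8). The subunits of a ring are present in equal numbers in the finished particle, and with these lengths their transcripts were not at equal levels in any group.

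The beta ring carries the catalytic sites, of which Psmb6 provides the caspase-like, Psmb7 the trypsin-like and Psmb5 the chymotrypsin-like activity. With adult platelets 6 of 8 beta genes rose, with P7 platelets 8 of 8, and 6 were higher with P7 than with adult platelets. Psmb5 held 30.7, 30.6 and 29.4 normalised CPM in control, 46.8, 36.5 and 33 with adult platelets and 49.2, 51.3 and 49.3 with P7 platelets. Its adult-platelet libraries were the most scattered (38.8 ± 7.14, SD, n = 3), and all of them lay above control and below P7 platelets. The log2 fold changes were 0.36 ± 0.11 (adjusted p = 0.0367) with adult and 0.73 ± 0.11 (adjusted p = 3.45e-04) with P7 platelets, and 0.37 ± 0.11 (adjusted p = 0.0232) between them. With 1 library left out, the first call was lost without control 1, 2 or 3 or P7 platelets 2 or 3 (adjusted p up to 0.112), and the last without adult platelets 2 or 3 or P7 platelets 2 or 3 (up to 0.0729).

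Psmb6 held 106, 98.7 and 96.5 normalised CPM in control, 141, 118 and 119 with adult platelets and 153, 149.8 and 160.4 with P7 platelets. Psmb7 held 82.5, 81.1 and 78.8, then 109, 97.7 and 92.7, then 117, 117 and 118 in the same order of groups. Both were called in all comparisons and no groups overlapped, with log2 fold changes of 0.32, 0.62 and 0.30 for Psmb6 and 0.30, 0.54 and 0.23 for Psmb7; the Psmb6 call with adult platelets was lost without control 2 or control 3 (0.30, adjusted p = 0.0541). Psmb2, a beta subunit with no catalytic site, had among the smallest p-values of the core in each comparison, with 95.6, 93.4 and 91.7 normalised CPM in control, 129, 117 and 108 with adult and 143, 145 and 146 with P7 platelets. Its log2 fold changes were 0.33, 0.63 and 0.30. Per kilobase of transcript Psmb6 had the highest level of the beta members in every group, 126 in control and 194 with P7 platelets.

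Psmb10, the interferon-inducible counterpart of Psmb7, was not called with adult platelets. It held 60.1, 57.7 and 56.7 normalised CPM in control, 61.2, 52.9 and 54.7 with adult platelets and 66.5, 70.4 and 76.8 with P7 platelets. Control and adult platelets overlapped (log2 fold change -0.05 ± 0.07, adjusted p = 0.664), whereas with P7 platelets it rose by 0.29 ± 0.07 over control (adjusted p = 0.00576) and by 0.34 ± 0.07 over adult platelets (adjusted p = 0.00472). The other inducible subunits, Psmb8 and Psmb9, are not among the members. Neither was called in any comparison: Psmb8 had log2 fold changes of 0.02, 0.24 and 0.22 and Psmb9 of -0.33, 0.13 and 0.46. Without control 1, Psmb8 was higher with P7 platelets than in control (0.37, adjusted p = 0.014), and without adult platelets 1 it was higher than with adult platelets (0.33, adjusted p = 0.0422). Psmb9 was likewise called between platelet groups without P7 platelets 1 (0.59, adjusted p = 0.0281), adult platelets 1 or control 1.

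A ratio of inducible to constitutive subunit within a library does not depend on the library scaling. The log2 ratio of Psmb8 to Psmb5 was 1.65, 1.32 and 1.35 in control, 1.05, 1.04 and 1.27 with adult platelets and 0.95, 0.89 and 1.05 with P7 platelets. That of Psmb9 to Psmb6 was -2.60, -2.84 and -2.95 in control, -3.34, -3.63 and -3.40 with adult and -3.56, -3.15 and -3.15 with P7 platelets. That of Psmb10 to Psmb7 was -0.46, -0.49 and -0.48 in control, -0.83, -0.89 and -0.76 with adult and -0.81, -0.73 and -0.62 with P7 platelets. All 3 ratios were lower in every platelet library than in every control library, and the platelet groups overlapped in all 3. The mean ratios fell short of control by 0.32, 0.65 and 0.35 on the log2 scale with adult platelets and by 0.47, 0.49 and 0.24 with P7 platelets. Each of these 6 differences had p = 0.1 in an exact two-sided permutation test, the smallest that 3 against 3 libraries can give, and 0.15 after adjustment over 9 tests, so none can pass a threshold of 0.05 in this design.

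**Figure D4:**
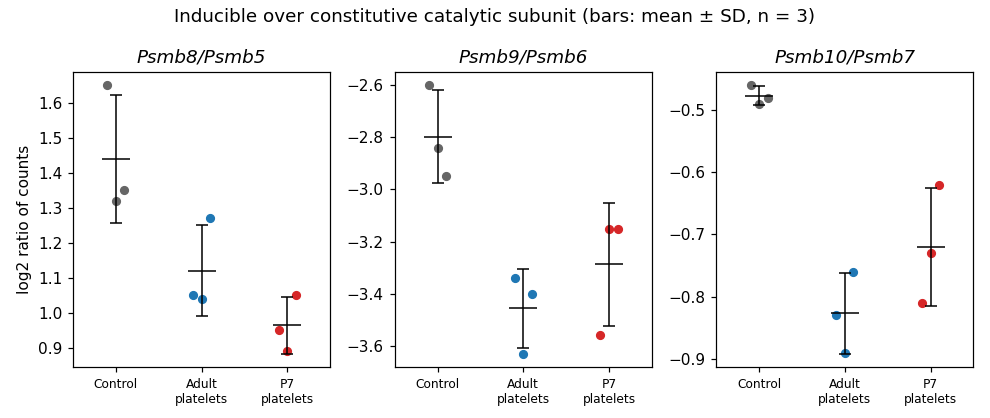
The log2 ratio of counts of an inducible subunit to its constitutive counterpart is shown for each library (points) with the mean and SD of each group (bars, n = 3), in one panel per pair. In each panel all 6 platelet libraries lie below the 3 control libraries, and the adult- and P7-platelet points overlap.

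The base of the regulatory particle holds a ring of 6 ATPases that unfold substrates. All 6 genes rose in all comparisons, with log2 fold changes between 0.26 and 0.38 with adult platelets, 0.45 and 0.80 with P7 platelets, and 0.18 and 0.42 between the platelet groups, and no groups overlapped. Psmc2 held 109, 102 and 105 normalised CPM in control, 153, 133 and 125 with adult platelets and 185, 180.4 and 185 with P7 platelets. It rose by 0.38 ± 0.07 (adjusted p = 0.00471) with adult and by 0.80 ± 0.07 (adjusted p = 1.52e-05) with P7 platelets. Psmc6 had the smallest standard errors of the 6, with 111, 111 and 105, then 133, 134 and 129, then 160.5, 159 and 158 normalised CPM in the same order of groups, and log2 fold changes of 0.28 ± 0.04, 0.55 ± 0.04 and 0.27 ± 0.04. Psmc4 had the smallest P7-to-adult difference of the 6. It held 111, 107 and 105 in control, 140.2, 124 and 126 with adult and 151, 145 and 147 with P7 platelets, and its P7-to-adult log2 fold change of 0.18 ± 0.06 (adjusted p = 0.0267) was lost without adult platelets 2 or 3 or any 1 of the P7-platelet libraries (adjusted p up to 0.0878) and became -0.03 when libraries were scaled to their totals. Per kilobase of transcript the 6 ATPases lay within 1.83-fold of each other in control and 1.73-fold with P7 platelets, from Psmc6 at 48.8 to Psmc3 at 89.4 in control.

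The other base subunits are the large scaffolds Psmd1 and Psmd2 and the ubiquitin receptor Psmd4. Psmd1 held 122, 119 and 117 normalised CPM in control, 166, 160.0 and 136 with adult platelets and 214, 212 and 218 with P7 platelets, with no overlap. Its log2 fold changes were 0.37 ± 0.07 (adjusted p = 0.00542), 0.85 ± 0.07 (adjusted p = 1.13e-05) and 0.48 ± 0.07 (adjusted p = 8.21e-04), the last of these the highest of the regulatory genes. Psmd4 held 119, 117 and 115 in control, 153, 128 and 123 with adult and 159, 155 and 163 with P7 platelets. All its adult-platelet libraries lay above control, but the difference of 0.20 ± 0.08 was not called (adjusted p = 0.0826), while those of 0.44 with P7 platelets and 0.24 between platelet groups were; the last was kept only where the library left out was control 1 or adult platelets 1 (adjusted p up to 0.114 otherwise), and the first was called without adult platelets 3 (0.27, adjusted p = 0.0347).

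The lid, which removes ubiquitin chains, had 6 of 8 genes that rose with adult platelets, 8 of 8 with P7 platelets and 7 of 8 between the platelet groups. Psmd12, a scaffold of the lid, held 70, 69.7 and 68.8 normalised CPM in control, 95.8, 94.5 and 86.1 with adult platelets and 121, 123 and 123 with P7 platelets. It had the smallest p of the regulatory genes with adult platelets, where it rose by 0.41 ± 0.05 (adjusted p = 5.29e-04), and it rose by 0.81 ± 0.05 (adjusted p = 2.09e-06) with P7 platelets. Psmd14, the metalloprotease that cuts the ubiquitin chain, held 85.8, 77.6 and 79.2 in control, 116, 107 and 94.5 with adult and 141, 144 and 144 with P7 platelets, with log2 fold changes of 0.39, 0.82 and 0.43, all called. Psmd11, a scaffold of the lid, had one of the smallest differences of the regulatory genes with adult platelets. It held 103, 106 and 106 in control, 121, 121 and 111 with adult and 146, 156 and 155 with P7 platelets, and its log2 fold change of 0.16 ± 0.05 with adult platelets (adjusted p = 0.0463) was lost without control 1, 2 or 3, adult platelets 1 or 2, or P7 platelets 2 or 3 (adjusted p up to 0.119), against 0.53 with P7 platelets (adjusted p = 2.53e-05). Psmd13 was the lid gene that did not differ by the test between platelet groups (0.07 ± 0.07, adjusted p = 0.493). Its difference with adult platelets (0.21, adjusted p = 0.0633) was called without adult platelets 2 (0.26, adjusted p = 0.0366), and scaled to library totals its difference between P7 platelets and control was 0.00. Without adult platelets 3, 10 of the 17 regulatory genes instead of 16 were higher with P7 than with adult platelets. The share of all genes called without that library was not taken, so a general loss of calls cannot be told apart.

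All 17 regulatory genes were called higher with P7 platelets than in control, and the promoters of the members were searched for short motifs within 250 bases before and 50 after the start of transcription, on both strands. RefSeq windows (GRCm38.p6) were at hand for 39 of the 46 members, 42 windows in all. The letters CCGGAAG, the core that ETS-family factors bind, occurred in 10 of the 15 windows of regulatory genes, 1 of 13 core windows and 4 of 12 windows of the third class. Over all members they were in 38.1% of windows, compared with 8.86% of all 32851 windows and 20.5% of the 8581 windows of genes with a mean of at least 10 CPM. The stretches from 60 bases before the start to the 9 after its first base are shown for the 7 regulatory genes that carry the letters there, among them members with larger (Psmc2, Psmd12) and smaller (Psmd13) changes. Capitals mark CCGGAAG or its reverse complement CTTCCGG.

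Psmc1 (chr12:100110142-100110211, plus strand): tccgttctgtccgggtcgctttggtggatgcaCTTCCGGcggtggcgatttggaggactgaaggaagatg
Psmc2 (chr5:21786687-21786756, plus strand): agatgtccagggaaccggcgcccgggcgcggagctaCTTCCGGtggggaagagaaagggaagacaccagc
Psmd2 (chr16:20651592-20651661, plus strand): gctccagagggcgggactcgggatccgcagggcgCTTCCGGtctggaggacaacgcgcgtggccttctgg
Psmd6 (chr14:14120936-14121005, minus strand): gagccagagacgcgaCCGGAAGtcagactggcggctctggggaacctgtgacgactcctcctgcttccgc
Psmd11 (chr11:80428555-80428624, plus strand): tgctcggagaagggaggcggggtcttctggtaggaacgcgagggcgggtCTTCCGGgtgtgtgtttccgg
Psmd12 (chr11:107479468-107479537, plus strand): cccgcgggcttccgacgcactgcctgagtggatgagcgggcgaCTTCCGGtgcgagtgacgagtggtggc
Psmd13 (chr7:140882334-140882403, plus strand): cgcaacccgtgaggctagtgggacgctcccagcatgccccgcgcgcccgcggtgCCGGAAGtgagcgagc

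These 7 stretches were shown because they hold the letters close to the start, so that position is no result. The letters lie on either strand. In Psmd4 and Psmc6 the match begins farther away, at -125 and -100 from the start. Psmc2 has another start, whose stretch (chr5:21785215-21785284) does not hold the letters. The longer window of that start does hold them, at -84 to -78. The 9 regulatory genes with CCGGAAG in their windows had a median log2 fold change with P7 platelets of 0.54 (0.28 to 0.81) and the 5 without it 0.65 (0.37 to 0.85), so the ranges of genes with and without the letters overlapped. The match is a description of these windows and shows no binding.

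The letters TGACNNNGC, the core of the antioxidant response element through which NFE2L1 and NFE2L2 act on proteasome genes, were in 14.3% of member windows, 12.4% of all windows and 14.5% of those of genes with a mean of at least 10 CPM. The 6 genes that hold them were Psmb5, Psmb6, Psmc6, Psmd12, Psmd9 and Psme4. With P7 platelets their log2 fold changes ran from -0.20 to 0.81 with a median of 0.58, and those of the 31 other members of the 3 classes with a window from -0.29 to 1.10 with a median of 0.45. The catalytic subunits Psmb5 and Psmb6 carry the letters within the stretch below, in capitals; Psme3, the member that rose most, carries CTTCCGG at its start.

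Psmb5 (chr14:54617986-54618055, minus strand): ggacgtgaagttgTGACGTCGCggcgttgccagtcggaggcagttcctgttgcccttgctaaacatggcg
Psmb6 (chr11:70525297-70525366, plus strand): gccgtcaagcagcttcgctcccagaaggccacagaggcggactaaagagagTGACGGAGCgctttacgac
Psme3 (chr11:101316153-101316222, plus strand): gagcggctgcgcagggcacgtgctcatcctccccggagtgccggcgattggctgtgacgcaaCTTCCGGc

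Other motifs searched were GGGANTTTC (NF-kB), in 1 of 42 member windows (2.38%) and 1.11% of all windows; GAAANNGAA (the interferon-stimulated response element), in 7 (16.7%) and 8.56%; TTCNNNGAA (the STAT site), in 4.76% and 8.3%; GCGCATGCG (nuclear respiratory factor), in 4.76% and 1.75%; GGGCGG (SP1), in 54.8% and 35.7%; and CCAAT, in 31% and 37.4%. Among the windows of genes with a mean of at least 10 CPM these letters were in 0.944%, 7.45%, 6.76%, 4.02%, 64.4% and 37.4% in the same order, so the SP1 letters were less frequent among the members and those of the nuclear respiratory factor about as frequent. For NF-kB, the interferon-stimulated element and the nuclear respiratory factor these letters leave off the last base of a longer form that was searched first. Shorter letters can match more windows. The matches in Psma6 (NF-kB), Psmb4 and Psmc2 (interferon-stimulated element) were not there with the longer form, while the nuclear respiratory factor gained no member window. The interferon-type letters stood in the windows of Psmb3, Psmb4, Psmc2, Psmd4, Psmd9, Psme1 and Psmg4. None of these motifs holds another of them within its letters, although neighbouring matches can share bases.

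The activators replace the regulatory particle at the end of the core. Psme1 and Psme2 encode the interferon-inducible cytosolic PA28 alpha and beta, Psme3 the nuclear PA28 gamma and Psme4 the nuclear PA200. With adult platelets 1 of the 4 rose, with P7 platelets 3, and the same number were higher with P7 than with adult platelets.

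Psme3 had the highest log2 fold change of the members with P7 platelets against control. It held 134, 132 and 137 normalised CPM in control, 161, 165 and 156 with adult platelets and 294, 274 and 295 with P7 platelets. The means were 134 ± 2.86, 160.4 ± 4.51 and 288 ± 12 (SD, n = 3), and the groups did not overlap. It rose 1.19-fold with adult platelets (log2 fold change 0.26 ± 0.05, adjusted p = 0.00548) and 2.14-fold with P7 platelets (1.10 ± 0.05, adjusted p = 5.97e-07), and the platelet groups differed 1.79-fold (0.84 ± 0.05, adjusted p = 9.29e-06).

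Psme2 and Psme1 lie tail to tail on chromosome 14 in the GENCODE M21 annotation of GRCm38, with 5911 bases between their ends, and their products join in 1 ring. Psme2 held 69.2, 69.2 and 69 normalised CPM in control, 82.2, 78.4 and 69.7 with adult platelets and 108, 132 and 134 with P7 platelets. The adult-platelet libraries reached from just above control upward and the difference was not called (0.15 ± 0.09, adjusted p = 0.234). With P7 platelets it rose 1.8-fold over control (0.85 ± 0.09, adjusted p = 3.56e-05) and 1.62-fold over adult platelets (0.70 ± 0.09, adjusted p = 3.80e-04). Psme1 held 145, 138 and 141 in control, 163, 141 and 141 with adult and 168, 180.1 and 181 with P7 platelets, and rose with P7 platelets by 0.32 ± 0.07 over control (adjusted p = 0.00231) and 0.25 ± 0.07 over adult platelets (adjusted p = 0.0139). The last call was lost without adult platelets 3, P7 platelets 2 or P7 platelets 3 (adjusted p up to 0.0555).

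Psme4 held 123, 136 and 143 normalised CPM in control, 118, 129.6 and 122 with adult platelets and 133, 139 and 139 with P7 platelets. It was not called in any comparison (log2 fold changes -0.12, 0.03 and 0.15), and the control libraries spanned the range of the P7-platelet libraries. Without adult platelets 2 it was higher with P7 than with adult platelets (0.20, adjusted p = 0.0465). Scaled to library totals, its difference between P7 platelets and control was -0.24 and was called lower. Per kilobase of transcript Psme4 had the lowest level of the 4 activators and Psme1 the highest in every group, 20.6 and 127 CPM per kilobase in control.

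Psmf1 encodes the inhibitor PI31. It held 22.1, 22.9 and 22.1 normalised CPM in control, 22.2, 23 and 22.6 with adult platelets and 28.7, 29.8 and 30.5 with P7 platelets. Control and adult platelets overlapped (0.02 ± 0.05, adjusted p = 0.84), and all P7-platelet libraries lay above both, by 0.41 ± 0.05 over control (adjusted p = 6.83e-05) and 0.39 ± 0.05 over adult platelets (adjusted p = 3.12e-04).

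**Figure D5:**
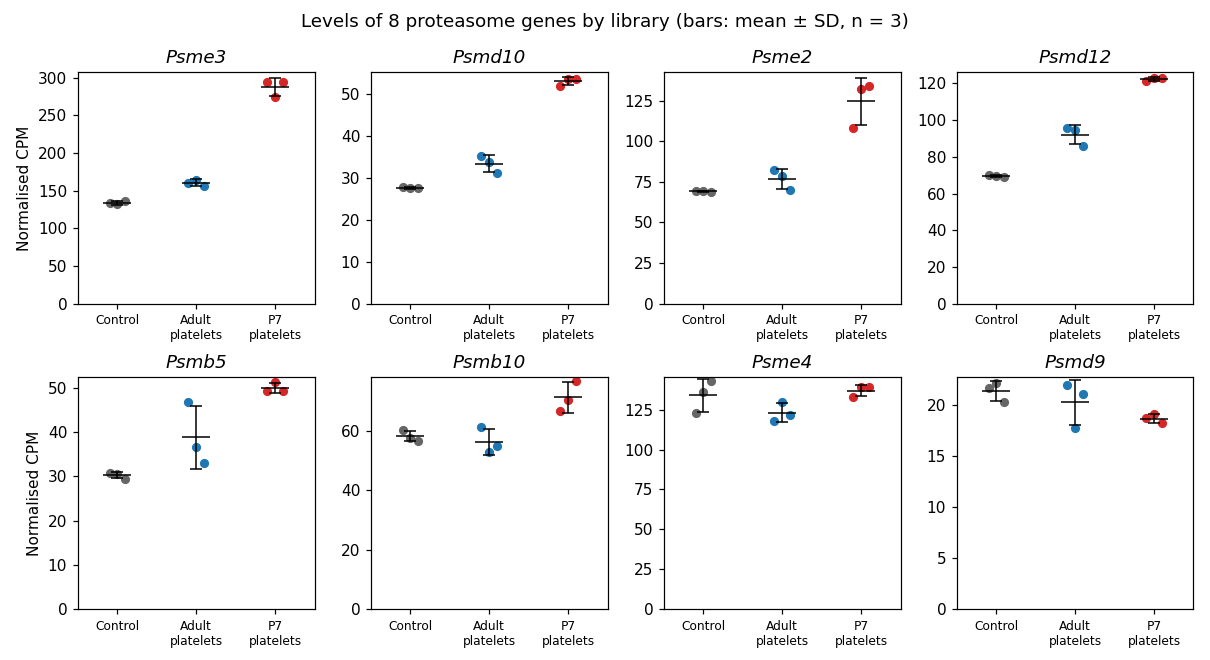
Normalised CPM of 8 members in each library (points), with the mean and SD of each group (bars, n = 3); each panel has its own axis, which starts at 0. Psme3, Psmd10, Psme2, Psmd12 and Psmb5 step up from control to P7 platelets, Psmb10 was called higher only in its comparisons with P7 platelets, and Psme4 and Psmd9 were not called.

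The assembly factors of the base, Psmd5, Psmd9 and Psmd10, bind single ATPases before they join the ring. Psmd10 (gankyrin) held 27.8, 27.5 and 27.5 normalised CPM in control, 35.1, 33.7 and 31.1 with adult platelets and 51.8, 53.5 and 53.4 with P7 platelets, with no overlap. It rose by 0.27 ± 0.05 (adjusted p = 0.00556) with adult and 0.94 ± 0.05 (adjusted p = 1.38e-06) with P7 platelets, and differed by 0.67 ± 0.05 (adjusted p = 3.59e-05) between them. The calls of the other factors were not the same. Psmd5 held 30.7, 30.9 and 28.9 in control, 32.6, 32.5 and 30.7 with adult and 37.5, 38.9 and 40.8 with P7 platelets, and was called only in the comparisons with P7 platelets, at 0.37 over control (adjusted p = 2.37e-04) and 0.29 over adult platelets (adjusted p = 0.00231). Psmd9 held 21.7, 22.2 and 20.3 in control, 22, 17.8 and 21.1 with adult and 18.7, 19.1 and 18.2 with P7 platelets. All P7-platelet libraries were below all control libraries, but the difference of -0.20 ± 0.08 was not called (adjusted p = 0.0621), except without adult platelets 1 or adult platelets 2 (-0.18, adjusted p = 0.0204 without the latter); without adult platelets 2 it was also lower than with adult platelets (-0.20, adjusted p = 0.0336). Its gene model overlaps 3 others, Hpd among them, whose reads may not be told apart from its own.

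Psmg1 to Psmg4 encode the chaperones that dimerise on the alpha ring as the core particle forms. They were at 6.35 to 17.6 CPM per kilobase of transcript in control, and 1 of the 4 rose with adult platelets, 1 rose and 1 fell with P7 platelets, and 0 differed between the platelet groups. Psmg3 held 5.95, 5.8 and 5.9 normalised CPM in control, 7.78, 7.35 and 6.58 with adult platelets and 6.39, 6.98 and 6.87 with P7 platelets, and it rose with adult platelets (0.30 ± 0.09, adjusted p = 0.0329), a call lost without control 1, 2 or 3, adult platelets 1 or 2, or P7 platelets 2 or 3 (adjusted p up to 0.11). Psmg4 held 9.35, 10.6 and 9.37 in control, 9.25, 8.55 and 10.7 with adult and 8.4, 7.24 and 8.25 with P7 platelets, where it fell by 0.29 on the log2 scale (SE 0.10, adjusted p = 0.0357). It was the 1 member called lower in these comparisons. The call was lost without control 2 or 3 or P7 platelets 2 or 3 (adjusted p up to 0.129), and without adult platelets 2 it was lower than with adult platelets too (-0.31, adjusted p = 0.0444). Psmg2 held 9.5, 10 and 10.4 in control, 11.3, 10.9 and 11.2 with adult and 11.6, 11.2 and 10.9 with P7 platelets, and rose by 0.17 ± 0.06 with P7 platelets (adjusted p = 0.0407). That call was lost without control 1 or 2 or any 1 of the P7-platelet libraries (adjusted p up to 0.137), and scaled to library totals the difference was -0.10. Psmg1 held 7.03, 6.67 and 6.18, then 7.32, 6.46 and 6.35, then 7.76, 7.43 and 7.32 in the same order of groups, and was not called.

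The 2 members that match by symbol only were low. Psmc3ip, which encodes a partner of recombinases in meiosis, held 2.68 to 3.2 normalised CPM in control, 3.66 to 4.6 with adult and 4.05 to 5.01 with P7 platelets, and rose with adult (0.51 ± 0.14, adjusted p = 0.0287) and P7 platelets (0.60 ± 0.14, adjusted p = 0.00569). The first of these calls was lost without control 2 or 3 or adult platelets 1 or 3 (adjusted p up to 0.105). Psme2b is a copy of Psme2 on chromosome 11, and reads of such a pair can be counted for either. It held 1.98 to 2.66 in control, 1.4 to 1.72 with adult and 2.28 to 3.66 with P7 platelets, and was higher with P7 than with adult platelets (0.93 ± 0.21, adjusted p = 0.00683), as Psme2 was. Its difference of -0.58 with adult platelets against control (adjusted p = 0.07) was called without P7 platelets 1 (adjusted p = 0.0489).

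The share of a library's counts taken by each class gives another view, since it involves no scaling factor. Core genes together took 1644, 1538 and 1496 CPM of the library total in control, 1942, 1671 and 1679.7 with adult platelets and 1776, 1724 and 1739.7 with P7 platelets. Both platelet groups lay above control and overlapped each other (P7 minus adult -0.01 on the log2 scale, exact two-sided permutation p = 1). The regulatory genes took 2157, 2032 and 1995 CPM in control, 2594, 2306 and 2256 with adult and 2573, 2512 and 2513 with P7 platelets, again above control, with the platelet groups overlapping (0.09, exact permutation p = 0.4). The third class took 666, 659 and 662 CPM in control, 696, 664 and 661 with adult and 790.2, 803 and 815 with P7 platelets. Here control and adult platelets overlapped, and P7 platelets lay above both, by 0.28 and 0.25 on the log2 scale (exact permutation p = 0.1 each, the smallest that 3 against 3 can give; 0.15 adjusted over 9 tests). As shares of all counts, core and regulatory genes thus overlapped between the platelet groups. The libraries of these groups also differ in their share of erythroid transcripts, as given above, and the part of that difference in the overlap was not tested.

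Other genes of the pathway were taken from a list of 29 in the files, 28 of which were tested. With adult platelets 9 rose and 1 fell, with P7 platelets 18 rose and 2 fell, and between the platelet groups 13 were higher and 1 lower with P7 platelets, with median log2 fold changes of 0.17, 0.35 and 0.22. The shares of all genes tested are those given above. Of the 9 listed as proteasome genes with other symbols or left out of the members, 3 rose with adult platelets (14.3% of all genes). With P7 platelets 4 rose over control (29.9%), and 1 was higher between the platelet groups (19.7%). Of these 9, 0 were lower in any comparison. Uchl5 and Ecpas were not called, with log2 fold changes of -0.07 and -0.06 with P7 platelets over control. Among the parts of the complex that carry other symbols, Pomp, the maturation factor of the core, rose over control with P7 platelets (0.22 ± 0.07, adjusted p = 0.0189), a call lost without control 2 or 3 or P7 platelets 1 or 3 (adjusted p up to 0.0708), and the difference was -0.06 when libraries were scaled to their totals. The ubiquitin receptor Adrm1 rose there too (0.41 ± 0.08, adjusted p = 0.00212). Between the platelet groups both were called without adult platelets 1 only (0.19 for Pomp, adjusted p = 0.0331; 0.32 for Adrm1, adjusted p = 0.00375). The deubiquitinase Usp14, which binds the base, held 53.5, 56.8 and 53.1 normalised CPM in control, 67.8, 69.2 and 60.3 with adult and 82.1, 81.2 and 79.1 with P7 platelets, with log2 fold changes of 0.27, 0.57 and 0.30, all called.

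The transcription factor NFE2L1 raises proteasome genes when the complex is short, after the protease DDI2 has cut it. Nfe2l1 held 247, 241 and 254 normalised CPM in control, 287, 349 and 280.1 with adult platelets and 456, 520.0 and 526 with P7 platelets, and rose by 0.30 ± 0.09 (adjusted p = 0.0356) and 1.02 ± 0.09 (adjusted p = 1.68e-05). The first call was lost without control 1, 2 or 3, adult platelets 2 or P7 platelets 2 (adjusted p up to 0.117). Ddi2 went the other way. It held 200.0, 211 and 209 in control, 148, 168 and 175 with adult and 122, 116 and 115 with P7 platelets, and fell by 0.33 (adjusted p = 0.00581) and 0.82 (adjusted p = 9.06e-06) on the log2 scale.

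Of 10 shuttle and unfolding factors 4 rose with adult platelets, and 8 rose and 1 fell with P7 platelets. Between the platelet groups 7 were higher with P7 platelets. Of 6 ubiquitin and ubiquitin-activating genes 1, 4 and 3 were higher in these comparisons. Among all genes tested 14.3%, 29.9% and 19.7% were higher in the same order. Rad23b, which carries ubiquitinated proteins to the proteasome, held 135, 140.2 and 135 normalised CPM in control, 163, 166 and 161 with adult platelets and 198, 199 and 208 with P7 platelets. It was called in all comparisons, with log2 fold changes of 0.26, 0.56 and 0.30. Ubqln1, another shuttle, rose by 0.22 with adult and 0.51 with P7 platelets. In contrast, Ubqln4 was called lower with P7 platelets than in control (-0.14, adjusted p = 0.0307). Ubqln2 was not called in any comparison (-0.15 with adult and -0.05 with P7 platelets over control). The Ubqln1 call with adult platelets was lost without control 1 or 2 (adjusted p up to 0.0791). In the same class Zfand5, a proteasome-binding zinc finger protein, was higher with P7 than with adult platelets by 0.51 (adjusted p = 3.37e-04), and without adult platelets 3 it was also called with adult platelets against control (0.22, adjusted p = 0.0229). The polyubiquitin gene Ubb held 189, 189 and 195 in control, 191, 183 and 218 with adult and 507, 385 and 450.1 with P7 platelets. Control and adult platelets overlapped for Ubb (0.05 ± 0.10, adjusted p = 0.763), and P7 platelets lay above both, 2.34-fold over control (adjusted p = 9.91e-06) and 2.27-fold over adult platelets (adjusted p = 5.83e-05).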

How the data were processed

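Poly(A) RNA of 9 monocyte libraries was sequenced from stranded libraries, per the labels' protocols. The authors deposited whole-number read counts per gene symbol in 1 table per library. Tools listed by the submitters' processing notes were Salmon 1.3.0, featureCounts, Subread 2.0.1, STAR 2.7.6a and fastp 0.20.1, with no role or order. For the counting, build, annotation and strand setting were not given in the sources used here; 22 members overlap another gene in GENCODE M21 (GRCm38), so reads there may be shared. Of the symbols, 53292 were in that annotation.

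Counts were fitted with edgeR 4.0.16 (R 4.3.3): TMM factors (0.882 to 1.1), filterByExpr with a minimum count of 10, 1 mean per group over all 9 libraries, the quasi-likelihood test with 6 residual degrees of freedom before moderation, and Benjamini-Hochberg adjustment over all 13707 genes tested in each comparison. All 46 members passed the filter. A gene was called at an adjusted p below 0.05. The fit was tested on simulated data. Normalised CPM are CPM of the TMM-scaled library size. Levels per kilobase use the annotation's principal transcript length, in place of the merged exon length first planned. Where several transcripts ranked equal, the longest was used. Ratios were taken of counts + 0.5, and ratios and class sums were compared by exact permutation tests. Total counts of 29687341 to 37065564 limit precision for the low members; replicate libraries differed by more than sampling noise.

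Members with values per library were the 3 with the smallest p in each class and comparison, plus a list of catalytic subunits, activators, inhibitor, assembly factors, Psmc4, Psmd4, Psmd14 and Psmc3ip. Of the other pathway genes these were the 4 with the smallest p per comparison, plus Psmb8, Psmb9, Pomp, Adrm1 and Nfe2l1. 1 gene that this rule names is not reported here. Psma1, Psma7, Psmd13, Psme2b, Nfe2l2, Ubqln2, Ubqln4, Uchl5 and Ecpas were added after their values were seen. The members and lists were chosen with earlier results of these data known. The motifs were chosen after the fold changes were seen, and the letters of NF-kB, the interferon-stimulated element and the nuclear respiratory factor were shortened by 1 base after a first search. Alternatives were DESeq2 1.42.0, limma 3.58.1 (voom), other scalings and filters, the replicate number as a block, removal of platelet, erythroid and mitochondrial transcripts, a term for Igkc, and leaving out each library.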

Additional observations from a re-analysis of the deposited data

How the results depend on the processing

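The comparisons are named here adult (adult platelets against control), P7 (P7 platelets against control) and between (P7 against adult platelets), and accessory genes are the activators, inhibitor and assembly factors. Library totals and the splits by Igkc were tried after seeing the data. Where no reason is given, the cause was not tested. Beside the main fit, shares of all genes called were taken only for some fits and are given above. These were library totals, members higher in the splits by Igkc, and adult without control 2, control 3 or adult platelets 1. Other counts below stand without such a share, so a general change in calls cannot be told apart. Library totals with no scaling factor gave 18 members higher and 2 lower for adult, 25 and 3 for P7 and 11 and 5 for between. They gave 6, 8 and 0 core genes higher (1 lower for between), 6 regulatory genes higher for between, and accessory genes 1 lower for adult, 4 higher and 3 lower for P7 and 4 lower for between. Without platelet, erythroid and mitochondrial transcripts in those totals, members lower numbered 2, 3 and 3 and members higher for between 15; core genes higher numbered 6 for adult and 2 for between, regulatory genes higher 7 for between, and accessory genes lower 1, 3 and 3. Upper-quartile factors gave 6 core genes higher for adult, 2 members lower for P7 (accessory) and, for between, 7 core and 10 regulatory genes higher and 1 member lower (accessory). Under library totals the P7 differences turned to -0.24 for Psme4, -0.10 for Psmg2, -0.06 for Pomp, -0.01 for Psma1, -0.09 for Psma7 and 0.00 for Psmd13, and the between differences to -0.18 for Psma7, -0.03 for Psmc4 and -0.20 for Psmg2. Without the listed transcripts in the totals the P7 differences were -0.15 for Psme4, -0.01 for Psmg2 and 0.00 for Psma7.

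The libraries with high Igkc alone (1, 2 and 1 per group, 1 residual degree of freedom, so fewer samples) gave 0, 5 and 1 members higher, with 0, 0 and 0 core, 0, 3 and 0 regulatory and 0, 2 and 1 accessory genes, and 0 lower for P7, accessory genes included. The groups with 1 library were assumed to vary like the others. The libraries with low Igkc gave 1 member lower for adult and 2 for P7, all accessory. The term for Igkc gave 2 members lower for P7, and so did the fit of only the 2 groups compared, all accessory; the latter also gave 6 core genes higher for adult. DESeq2's Wald test and the fit with no filter gave 0 members lower for P7, accessory genes included.

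Leaving out 1 library at a time, members higher ranged from 14 to 30 for adult, 38 to 40 for P7 and 24 to 35 for between, and members lower from 0 to 1, 0 to 2 and 0 to 2. Core genes higher for adult ranged from 4 to 13, regulatory genes higher from 8 to 15 for adult and 10 to 16 for between, and accessory genes lower from 0 to 2 for P7 and for between.

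The replicate number as a block gave 31, 39 and 35 members higher, and 1 lower for adult. Deviations of same-numbered libraries correlated at 0.486 to 0.576 for number 1, 0.209 to 0.346 for number 2 and -0.081 to 0.335 for number 3. Control 3 correlated more with adult platelets 2 (0.424) than with its own number. The number-1 libraries thus deviated together, and all of them hold high Igkc. No label says that the numbers pair samples, so the main fit left the libraries unpaired.

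Summed levels on the TMM-scaled size differed by 0.44, 0.57 and 0.55 (log2) for P7 and 0.20, 0.30 and 0.47 for between in core, regulatory and accessory genes, and by 0.09 for adult in accessory genes. Without the listed transcripts in the total they differed by 0.25, 0.39 and 0.37 for P7, and by 0.33 for between in accessory genes. The ratios kept their direction with a pseudocount of 5, and a floor of 10 CPM would keep 41 members. Over all named genes and alternatives, 2723 values kept direction and call, 239 lost the call, 62 gained it and 12 turned direction. Standard errors were larger for low members (0.21 for Psme2b, 0.14 for Psmc3ip) than for Psmc6 (0.04), and permutation p-values of 3 against 3 libraries cannot go below 0.1.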
